A study of Rattus norvegicus with 30 samples.

Results

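Complement components and regulators were followed in rat hippocampus after kainate. The genes taken were C1qb, C3, Masp1, Serping1, Cd55, Cd59 and C4a, and every array probe set annotated to exactly 1 of these symbols was a member. That rule found 9 probe sets among the 8740 probe sets that are not array controls, and they stood for 6 of the 7 genes, out of 4736 genes with such a probe set on the array. C4a had no probe set of its own, and 2 probe sets annotated to both C4b and C4a are described apart. The rule itself reads no measured value, though the genes were listed with earlier results of these data known.

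The series measured total RNA from rat hippocampus on 30 Affymetrix arrays. Rats received kainate, an agonist of kainate-type glutamate receptors that is used to provoke seizures and death of hippocampal neurons, or phosphate-buffered saline (PBS) as the control, and tissue was taken 1, 6, 24, 72 or 240 h later. Each of the 10 groups, kainate and PBS at each of the 5 times, held 3 arrays. Strain, sex, age, dose, route, genotype and pooling of animals are not given in the sources used here, and no allele is named for any group.

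Complement is a cascade of plasma and tissue proteins that tags cells and debris for removal and can puncture membranes. The classical pathway starts when C1q binds a target and activates the proteases C1r and C1s, the lectin pathway starts from mannose-binding proteins with their MASP proteases, and both lead to cleavage of C4 and C3. Serping1 blocks the starting proteases, Cd55 dismantles the enzyme that cleaves C3, and Cd59 stops assembly of the membrane pore. In brain, microglia are the main makers of C1q, and in mice C1q and C3 tag synapses for removal.

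The 250 bases before an annotated transcript start of C1qb, C3 and Masp1 are shown. C1qb and Masp1 were taken because their probe sets passed the test for an effect at any time. C3 was added because at 24 h 2 of 3 kainate arrays stood above all PBS arrays for both of its probe sets. The sequences are from RefSeq on build GRCr8, where 4 of the 6 genes matched (C1qb, C3, Masp1 and Cd55; Serping1 and Cd59 did not), and each is given 5′ to 3′ on the strand of its gene. They lie at chr5:154407828-154408077 on the minus strand for C1qb, chr9:2201340-2201589 on the minus strand for C3 and chr11:90839472-90839721 on the plus strand for Masp1. The C1qb and C3 windows adjoin the annotated span of their gene. The Masp1 window instead lies inside the annotated span of Masp1, chr11:90839081-90909922, so it is not the sequence upstream of the whole gene. Capitals mark matches to 5 motifs searched on both strands: the core of PU.1 sites (GAGGAA), C/EBP (TTGCNNAA), STAT (TTCNNNGAA), the interferon-stimulated response element and NF-kappaB.
C1qb: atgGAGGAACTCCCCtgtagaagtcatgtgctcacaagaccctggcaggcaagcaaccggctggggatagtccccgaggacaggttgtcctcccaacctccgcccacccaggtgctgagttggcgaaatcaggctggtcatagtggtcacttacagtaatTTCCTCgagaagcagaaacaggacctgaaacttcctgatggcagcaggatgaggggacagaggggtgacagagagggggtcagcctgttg
C3: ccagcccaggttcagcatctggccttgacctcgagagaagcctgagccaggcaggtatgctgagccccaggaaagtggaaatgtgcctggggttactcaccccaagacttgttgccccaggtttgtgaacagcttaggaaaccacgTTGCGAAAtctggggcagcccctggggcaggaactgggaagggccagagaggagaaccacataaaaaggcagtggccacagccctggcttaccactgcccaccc
Masp1: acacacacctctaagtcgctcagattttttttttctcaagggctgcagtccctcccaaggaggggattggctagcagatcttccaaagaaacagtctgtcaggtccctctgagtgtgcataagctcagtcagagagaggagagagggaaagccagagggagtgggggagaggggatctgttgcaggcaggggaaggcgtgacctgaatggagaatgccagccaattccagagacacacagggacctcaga
C1qb held 2 matches to the PU.1 core, whose first bases lie 247 and 90 bases before the start, and 1 NF-kappaB match, 245 bases before it, that overlaps the more distant PU.1 match. C3 held 1 C/EBP match, 104 bases before its start, and the Masp1 window, inside the gene span, held none of the 5. Of 33465 promoters of the same length, 23.3% held the PU.1 core, 9.22% the C/EBP motif, 7.67% the STAT motif, 6.33% the NF-kappaB motif and 3.41% the interferon-stimulated element. These letters describe the window and were not tested against the expression data.

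The arrays had been brought to a common level before deposit, with trimmed means of 150.1 to 150.2, and the median correlation between replicate arrays was 0.947. All arrays of 6 and 72 h, kainate and PBS alike, stood apart from those of the other times on the leading principal component, which held 16.2% of the variance. Each kainate group is compared with the PBS group of its own time, so this split does not divide those comparisons, although it does divide any comparison between times. Taken within the split, both C1qb probe sets passed at 6 and 24 h in the fit of the subset that holds the time (adjusted p 0.0134 or less). Values below a signal of 10.95, the 20th percentile, were set to that floor before taking log2, and a probe set was tested when it passed a signal of 35.2 on at least 3 arrays. Of 12 neuron markers 8 had a probe set and 7 were tested, among them Snap25 with group means of 1017 to 2029, while Slc17a7 lay under the floor on all 30 arrays. The filter left 6303 probe sets and 6 of the 9 members. All differences below are log2 kainate minus PBS from limma with Benjamini-Hochberg adjustment over those 6303, with n = 3 arrays in each group. Replicates carry a number in the labels, with no word on whether they are separate animals, and the p-values therefore reflect the variation among these arrays, which may be technical.

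Of the member genes, C1qb alone passed the comparison of kainate with PBS at a single time. The test for an effect at any time was passed by Masp1 as well. No member passed the adjusted 0.05 threshold at 1 h, when 1.09% of all tested probe sets passed, 0.904% higher and 0.19% lower. The lowest adjusted p of a member was then 0.483, and 1 member, Cd59, was under an unadjusted 0.05. At 6 h 2 of the 6 tested members passed, both C1qb and both higher, when 3.24% of all tested probe sets were higher, 0.698% lower and 3.93% either. At 24 h the same 2 C1qb probe sets passed as higher, when 5.03% of all tested probe sets were higher, 6.3% lower and 11.3% either. At 72 h no member passed, with a lowest adjusted p of 0.0874 and 4 of 6 under an unadjusted 0.05, and 3 probe sets in all passed, or 0.0476%, each higher. At 240 h no member passed, with 0 of 6 under an unadjusted 0.05 and again 0.0476% of all tested, each higher. No member passed as lower at any time. The median difference of the 6 members was 0.26, -0.12, 0.85, 0.68 and 0.13 from the earliest to the latest time, beside medians between -0.11 and 0.03 for all tested probe sets. Because the tissue was measured in bulk, more cells of a type and more RNA per cell cannot be told apart.

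**Figure D1:**
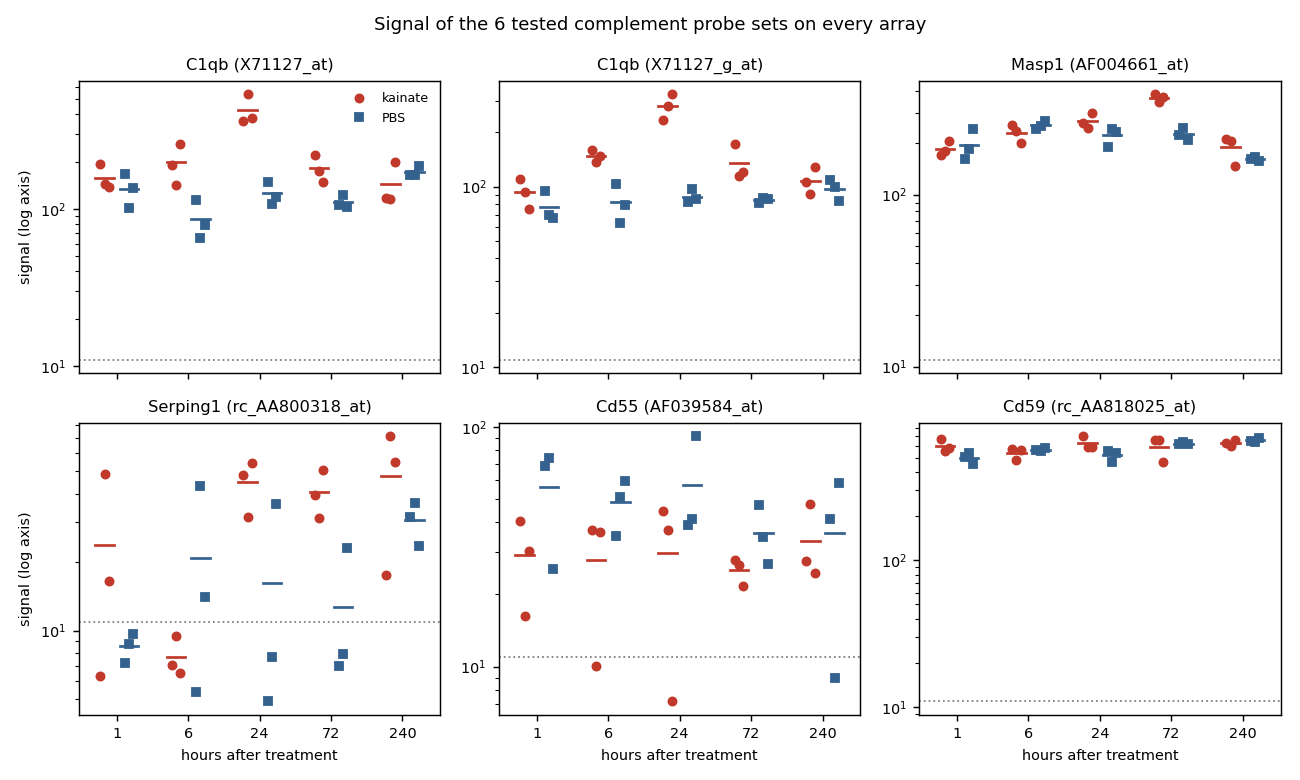
Signal (log axis) of the 6 tested member probe sets on every array against hours after treatment, kainate as red circles and PBS as blue squares, with a bar at each group's mean and a dotted line at the floor of 10.95. Both C1qb panels separate at 6, 24 and 72 h and Masp1 at 24 and 72 h, and many Serping1 points lie under the floor.

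C1qb encodes the B chain of C1q, the recognition molecule of the classical pathway. Its first probe set, X71127_at, had signals of 189.9, 143 and 261 in kainate hippocampi at 6 h, against 115, 65.1 and 79.35 in PBS hippocampi. The 3 kainate arrays all lay above the 3 PBS arrays, and the difference was 1.19 (SE 0.25, adjusted p = 0.00246 in limma), or 2.29-fold. At 24 h it had 360.4, 537 and 381 in kainate hippocampi, against 149, 108 and 119 in PBS hippocampi. Again no arrays overlapped, with 360.4 on the lowest kainate array and 149 on the highest PBS array. The difference was 1.75 (SE 0.25, adjusted p = 2.37e-05 in limma), or 3.37-fold.

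The second C1qb probe set, X71127_g_at, is built on the same source sequence, so it is a repeat reading of 1 transcript and not a second gene. It had 160.2, 137 and 147 in kainate hippocampi at 6 h, against 104, 62.9 and 78.7 in PBS hippocampi, a difference of 0.88 (SE 0.21, adjusted p = 0.00808 in limma). At 24 h it had 234, 282 and 326 in kainate hippocampi, against 82.4, 97.1 and 85.1 in PBS hippocampi, a difference of 1.66 (adjusted p = 2.89e-06 in limma), or 3.16-fold. At both times every kainate array stood above every PBS array. Its 6 h call is the less firm: without replicate 1 of the kainate 6 h group its adjusted p was 0.0513, and without replicate 2 of the PBS 6 h group it was 0.0955, while X71127_at passed in both of these fits. Ranked by rise at 24 h among the 6303, the C1qb probe sets stood at 42 and 54.

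At the other times C1qb did not pass. At 72 h X71127_at had 219, 175 and 148 in kainate hippocampi, against 106, 122 and 102 in PBS hippocampi (difference 0.70, adjusted p = 0.53 in limma), and X71127_g_at had 172, 114 and 121 in kainate hippocampi, against 81.5, 87.0 and 86.0 in PBS hippocampi (difference 0.65, adjusted p = 0.37 in limma). The groups still did not overlap at 72 h for either probe set, although neither passed the adjusted threshold. At 1 h X71127_at averaged 158 ± 31.1 in kainate hippocampi and 134 ± 33.1 in PBS hippocampi (SD, n = 3 each), with overlapping arrays and a difference of 0.25. At 240 h the probe sets pointed opposite ways, -0.30 and 0.15, with overlapping arrays and intervals that include 0 (-0.81 to 0.21 for X71127_at).

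The size of the kainate effect on C1qb depended on the time. The F test for a difference in the effect between the 5 times gave adjusted p = 0.00181 for X71127_at and 0.00566 for X71127_g_at, and 6.62% of all tested probe sets passed it. Within the arrays of 1, 24 and 240 h both passed again (adjusted p = 0.00111 and 0.00205), and between 6 and 72 h neither did (0.648 and 0.835). No single step from one time to the next passed in limma for any member: 0 of 24 contrasts. Under an unadjusted 0.05 were 11 of 24, and the lowest adjusted p was 0.108, for Serping1 at 24 against 6 h. Over all tested probe sets the share passing was 1.09% for 6 against 1 h, 5.24% for 24 against 6 h, 0.746% for 72 against 24 h and 0% for 240 against 72 h. The drop in the C1qb effect at 72 h, against 24 h, was -1.05 for X71127_at (adjusted p = 0.305) and -1.01 for X71127_g_at (adjusted p = 0.162 in limma). Without replicate 3 of the PBS 24 h group, 1 of the 24 contrasts of all members passed. This count does not say whether it was a contrast of C1qb.

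Some markers of microglia and macrophages rose at 24 h as well, and are given beside C1qb because these cells make C1q. Of 13 listed genes 9 had a probe set and 7 were tested (Aif1, Ptprc, Cx3cr1, P2ry12, Cd53, Lyz2 and Ctss), while Itgam and Csf1r were too low to test, with highest signals of 26.7 and 23.7. At 24 h, when 5.03% of all tested probe sets were higher and 6.3% lower, 2 of 7 markers were higher. They were Cd53, a membrane protein of white blood cells and microglia, by 1.59 and Ctss, the lysosomal protease cathepsin S, by 0.65. The other 5 did not pass: Lyz2 had 0.67, Aif1 0.56, Cx3cr1 -0.07, Ptprc -0.37 and P2ry12, a receptor of resting microglia, -0.67 (adjusted p = 0.0827 in limma). The summed signal of the 7 was 1545 to 1843 on kainate arrays and 1077 to 1330 on PBS arrays at 24 h. Most of that sum was Ctss, with 916 to 1322 on kainate arrays and 616 to 736 on PBS arrays. At 6 h 0 of 7 were called, when 3.93% of all tested probe sets passed. The median difference of the 7 was -0.25, beside -0.11 for all tested probe sets. The sum of the 7 was 1198 to 1308 on kainate arrays and 1224 to 1354 on PBS arrays at 6 h. Markers of other cell types also moved. Of 4 tested endothelial markers 1 was higher at 6 and at 24 h, the glucose transporter Slc2a1 (1.28 and 0.56). Of all tested probe sets 3.24% and 5.03% were higher at these times. The sum of the 4 at 6 h was 665 to 740.2 on kainate arrays and 352 to 422 on PBS arrays. The largest part of that sum was Slc2a1, with 481.5 to 604 on kainate arrays and 189 to 277 on PBS arrays. The others did not pass at 6 h: Vwf had 0.38, Pecam1 -0.075 and Flt1 -0.20. At 24 h 2 of 7 neuron markers were lower, Camk2a (-1.89) and Nefl (-0.46), beside 6.3% of all tested probe sets. The sum of the 7 was 3886 to 4386 on kainate arrays and 5065 to 5158 on PBS arrays. The other neuron markers did not pass: Syt1 had -0.59, Gad1 -0.31, Snap25 -0.31, Nefm -0.07 and Gad2 0.01. Of 9 listed astrocyte markers 8 had a single-gene probe set, all of them tested, and Gfap had none. At 24 h 2 of 8 astrocyte markers were lower, Aldoc (-0.83) and S100b (-0.58), beside 6.3% of all tested probe sets. The sum of the 8 was 6282 to 7072 on kainate arrays and 7787 to 8152 on PBS arrays. In that sum Aldoc averaged 1137 on kainate and 2004 on PBS arrays, and S100b 1405 and 2095. The other astrocyte markers did not pass and went both ways: Slc1a2 had 0.43, Glul 0.16, Slc1a3 0.08, Aldh1l1 -0.39, Aqp4 -0.45 and Gja1 -0.605. Of 3 tested blood markers 1 was lower at 24 h, Slc4a1 (-0.81, adjusted p = 0.02 in limma), while Alas2 (-0.43) and Hbb (-0.11) did not pass. No tested marker of oligodendrocytes or leukocytes passed at any time. The part of cell numbers in the C1qb differences was not tested.

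The PBS groups alone differed for 2 of the 6 members, against 16.9% of all tested probe sets, but this comparison runs across the split between the 6 and 72 h arrays and the others. The PBS means of X71127_at were 134, 86.3, 125, 110.0 and 172 at 1, 6, 24, 72 and 240 h (adjusted p = 0.038 for any difference, F test in limma), with the lowest at 6 h. The second C1qb probe set did not pass (adjusted p = 0.652). The PBS means of Masp1 were 195.5, 254, 221, 224 and 162 (adjusted p = 0.0294), with the highest at 6 h. Within the split no member passed. Among the PBS groups of 1, 24 and 240 h the lowest adjusted p was 0.0794, with 3 of 6 under an unadjusted 0.05 and 5.57% of all tested probe sets passing. Between those of 6 and 72 h it was 0.969, with 0 of 6 under an unadjusted 0.05 and 0.127% passing. Time and the split therefore cannot be told apart in the PBS differences. The 2 calls also depend on single arrays: none passed without any 1 of the 3 PBS arrays of 240 h, or without replicate 2 or 3 of the PBS 6 h group, and 1 passed without replicate 1 or 3 of the PBS 72 h group.

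Masp1 encodes a serine protease of the lectin pathway. Its signal at 72 h was 384, 346 and 369.6 in kainate hippocampi, against 221.5, 244 and 207 in PBS hippocampi. The groups were far apart, with averages of 366.5 ± 19.2 in kainate hippocampi and 224 ± 18.6 in PBS hippocampi (SD, n = 3 each), and the difference was 0.71 (95% interval 0.39 to 1.03). It did not pass at 72 h (adjusted p = 0.0874 in limma), although by p it ranked 7 of 6303 there. It passed at 72 h without the filter on low values (adjusted p = 0.0479), in a fit of the 6 and 72 h arrays alone (0.0447) and with array weights (0.00103), which raised the count over all tested probe sets to 153, against 3. It did not pass under the other 5 settings (0.0543 to 0.155), nor in any fit that left out 1 array of 72 h (0.135 to 0.405).

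Before and after 72 h the Masp1 groups were closer. At 24 h the kainate arrays held 261, 245 and 299.7, against 189, 242 and 232 on PBS arrays, with no overlap but a difference of 0.28 that did not pass (adjusted p = 0.243 in limma). At 1, 6 and 240 h the differences were -0.06, -0.15 and 0.20, and the groups overlapped. The F test for an effect at any time passed for Masp1 (adjusted p = 0.0234), as it did for both C1qb probe sets (1.29e-05 and 3.65e-06), against 9.33% of all tested probe sets. For Masp1 this call was lost, with adjusted p between 0.0615 and 0.0794, without replicate 1 or 3 of either 72 h group, kainate or PBS. Its test for an effect that differs between times gave adjusted p = 0.0648 over all 5 times and 0.0289 between 6 and 72 h alone.

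**Figure D2:**
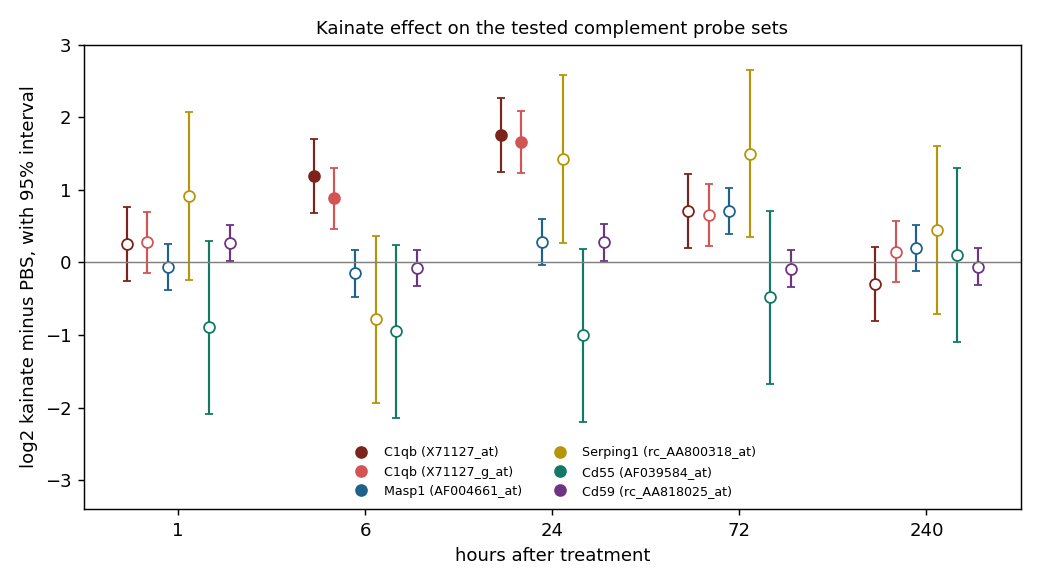
Log2 kainate minus PBS with its 95% interval for each tested member probe set at each time (hours after treatment), filled points where the adjusted p in limma was under 0.05. The filled points are C1qb at 6 and 24 h, while Serping1 and Cd55 have wide intervals.

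Serping1 encodes the C1 inhibitor, which blocks C1r, C1s and the MASP proteases. It was dim: 4 of 15 kainate arrays and 8 of 15 PBS arrays lay under the floor. At 24 h it had 48.3, 31.7 and 54.6 in kainate hippocampi, against 1 PBS array at 36.0 and 2 under the floor. At 72 h it had 39.3, 31.4 and 50.7 in kainate hippocampi, against 1 PBS array at 23.2 and 2 under the floor. All 3 kainate arrays were measurable at both times and the groups did not overlap at 72 h, but neither difference passed: 1.42 (SE 0.56, adjusted p = 0.0996 in limma) and 1.499 (SE 0.56, adjusted p = 0.577). At 24 h it passed (adjusted p = 0.0381) without replicate 3 of the PBS group.

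The Serping1 difference carried both signs over the 5 times, but the test for an effect differing between times did not pass (adjusted p = 0.222 in limma). At 6 h all 3 kainate arrays lay under the floor, while PBS arrays had 43.4 and 14.1 with 1 under the floor, a difference of -0.78 that did not pass (adjusted p = 0.55 in limma). At 1 h kainate arrays had 48.8 and 16.5 with 1 under the floor, while all 3 PBS arrays lay under it. At 240 h kainate arrays ran from 17.5 to 71.6 and PBS arrays from 23.6 to 36.5. Its F test for an effect at any time did not pass (adjusted p = 0.0823). Of 4 listed markers of choroid plexus, a tissue next to the hippocampus, Ttr and Kl were tested, and neither passed at any time. Ttr had differences of 1.67, -1.32, 0.94, 1.18 and -1.19 at the 5 times (SE 1.26 each, adjusted p 0.663 to 0.948 in limma). The sign of Ttr was that of Serping1 at 1, 6, 24 and 72 h and the opposite at 240 h. Kl had -0.18, -0.58, -0.07, 0.51 and 0.49. The sign of Kl was that of Serping1 at 6, 72 and 240 h and the opposite at 1 and 24 h. The median Ttr signal was 1390 on the 18 arrays with Serping1 above the floor and 1407 on the 12 arrays with it under the floor. The part of choroid plexus in the Serping1 values was not tested.

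Cd55 encodes decay-accelerating factor, which limits the C3-cleaving enzyme on the cell surface. Its tested probe set, AF039584_at, had differences of -0.90, -0.95, -1.005, -0.48 and 0.10 at the 5 times, and none passed (adjusted p 0.271 to 0.973 in limma). At 24 h it had 44.7 and 37.2 in kainate hippocampi with 1 array under the floor, against 38.8, 41.4 and 91.6 in PBS hippocampi. The groups overlapped, and the interval of the difference, -2.20 to 0.19, spans both a large decrease and a small increase. The second probe set, AF039583_s_at, was too low to test. At 6 h it lay under the floor on all 3 kainate arrays, against 28.7, 42.0 and 25.1 on PBS arrays, which makes it at least 2.85-fold lower in kainate hippocampi. Without the filter on low values, over 8740 probe sets, this difference did not pass (adjusted p = 0.0978 in limma). Its groups overlapped at the other 4 times, and the tested Cd55 probe set overlapped at 6 h too.

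Cd59, whose protein blocks the membrane pore, was well above the floor on all arrays. The annotated gene carries the current symbol Cd59b. At 24 h it averaged 629 ± 63.8 in kainate hippocampi and 518 ± 43.6 in PBS hippocampi (SD, n = 3 each). No arrays overlapped, but the difference of 0.28 (95% interval 0.03 to 0.53) did not pass (adjusted p = 0.145 in limma). At 1 h it averaged 601 ± 58.3 in kainate hippocampi and 500.0 ± 43.1 in PBS hippocampi, also without overlap and also not passing (difference 0.26, adjusted p = 0.483). At 6, 72 and 240 h the differences lay between -0.09 and -0.06, with overlapping groups.

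Across the tested members, groups that did not overlap had kainate above PBS in each case. At 1 h it was 1 of 6 (Cd59) and at 6 h 2 of 6 (C1qb). It was 4 of 6 at 24 h (C1qb, Masp1 and Cd59), 4 of 6 at 72 h (C1qb, Masp1 and Serping1) and 0 of 6 at 240 h. Of all tested probe sets 10.3%, 27.7%, 28.1%, 22.1% and 14.5% did not overlap at these times, in either direction. The shares in each direction were not counted. Among the members too low to test, AF039583_s_at of Cd55 went the other way at 6 h, with all kainate arrays below PBS. C1qb counts as 2 of the tested members.

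C3 encodes the protein on which all complement pathways converge. Both of its probe sets were too low to test. M29866_s_at lay under the floor on every array outside the kainate 24 h group, and X52477_at did so except on 1 PBS array each at 24, 72 and 240 h. At 24 h M29866_s_at had 33.6 and 42.4 on replicates 1 and 2 of the kainate group and 8.58, under the floor, on replicate 3. All 15 PBS arrays of the 5 times lay under the floor, the highest at 3.81, so replicate 3 too stood above them. X52477_at had 20.3 and 37.6 on the same 2 kainate arrays and lay under the floor on replicate 3, while the highest of 15 PBS arrays was 16.5. On replicate 3 C1qb was within or above the range of the other 2 (381 and 326 for its 2 probe sets). Without the filter on low values, over 8740 probe sets, the 24 h differences had adjusted p = 0.00689 and 0.0397 in limma. Under that setting 4 member probe sets passed at 24 h; for C3 most of the 30 values are at the floor, so that its spread is set by few arrays.

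C4 is cleaved by the C1 and MASP proteases, and its probe sets are annotated to C4b and C4a together, so the values cannot be given to either gene. At 24 h rc_AA800942_at had 58.0, 52.2 and 13.8 in kainate hippocampi, against 14.5, 11.4 and 16.02 in PBS hippocampi. As for X52477_at of C3, replicates 1 and 2 of the kainate group stood above every PBS array and replicate 3 did not. The difference of 1.32 did not pass (adjusted p = 0.0655 in limma). The signals that took rc_AA800942_at past the filter on low values were all from kainate arrays. They were 58.0 and 52.2 at 24 h and 43.9 at 1 h, against a highest PBS signal of 28.1. Its entry to the test thus rested partly on the 24 h values compared, and the adjusted p is not independent of them for this probe set. The other, U42719_at, was not tested and had 18.5, 13.9 and 17.5 in kainate hippocampi, against 13.8, 14.4 and 17.5 in PBS hippocampi, so it did not repeat the separation.

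**Figure D3:**
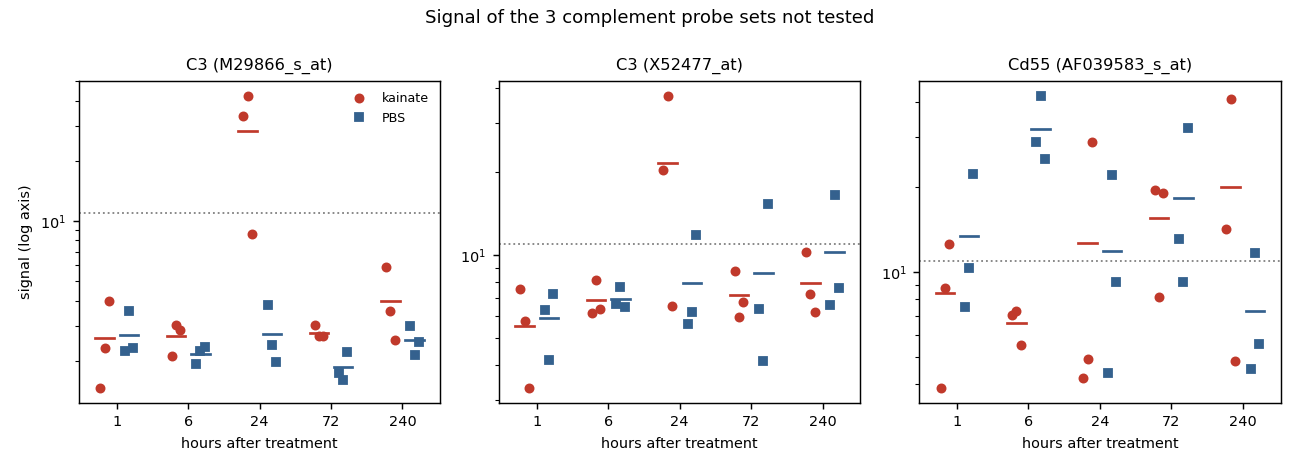
Signal (log axis) of the 3 member probe sets too low to test on every array against hours after treatment, kainate as red circles and PBS as blue squares, with a bar at each group's mean and a dotted line at the floor of 10.95. At 24 h 2 of 3 kainate arrays stand above the floor for both C3 probe sets, and at 6 h all 3 PBS arrays stand above all kainate arrays for AF039583_s_at.

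Among 49 genes listed for the wider complement pathway, 24 had a single-gene probe set and 14 were tested. C1qb alone passed, at 6 and 24 h, and none was lower at any time. That is 1 of 14 at each of these times, the member already described. Of all tested probe sets 3.24% were higher at 6 h and 5.03% at 24 h. The median difference of the 14 was 0.10, -0.17, 0.28, 0.04 and 0.07 at the 5 times. For all tested probe sets it was -0.04, -0.11, -0.05, -0.04 and 0.03. C1qc and C8b were picked out after their values were seen. C1qc, another chain of the same C1q molecule, averaged 134 ± 21.4 in kainate hippocampi and 108 ± 5.93 in PBS hippocampi at 24 h (SD, n = 3 each), a difference of 0.29 (95% interval -0.05 to 0.64, adjusted p = 0.267 in limma) with overlapping arrays. At 6 h it had -0.12 (interval -0.47 to 0.22), when C1qb had 1.19 (interval 0.68 to 1.70). The difference between the chains was not tested. C8b, a subunit of the membrane pore, ran from 31.1 to 62.1 on kainate arrays at 240 h, against 9.17 to 14.7 on PBS arrays. Of those PBS arrays 2 of 3 lay under the floor, and C8b did not pass (difference 1.98, adjusted p = 0.101 in limma). Outside the kainate 240 h group only a PBS array of 1 h, at 39.7, passed the filter signal of 35.2. Its entry to the test thus rested partly on the 240 h values compared, and the adjusted p is not independent of them. The 10 genes too low to test included C1s, the protease of C1, the anaphylatoxin receptor C3ar1 and Itgam, a chain of complement receptor 3.

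**Figure D4:**
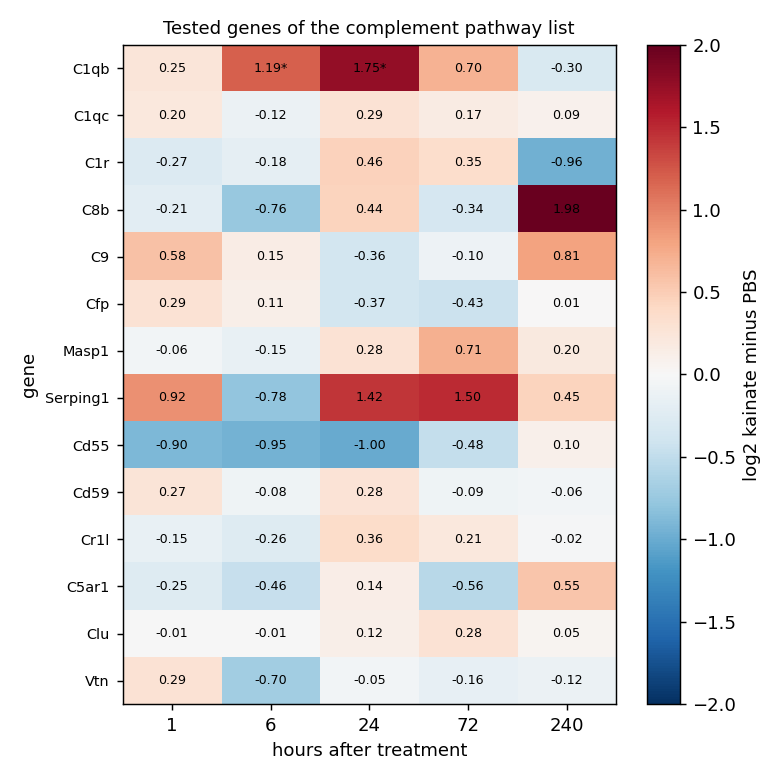
Log2 kainate minus PBS of the 14 tested complement pathway genes (rows) at each time (columns, hours after treatment), red where kainate was higher, with an asterisk where the adjusted p in limma was under 0.05. The asterisks stand at C1qb, 1.19 at 6 h and 1.75 at 24 h.

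The genes nearest to C1qb in their 5 differences, out of 3691, were Ifitm3 (root mean square difference 0.23), Zmiz1 (0.27) and Myo1e (0.29). Ifitm3, an interferon-induced membrane protein, had 0.11, 1.41, 1.82, 0.36 and -0.01 at the 5 times. C1qb had 0.25, 1.19, 1.75, 0.70 and -0.30 on the same scale. Nearest to Masp1 were Cyb5r3 (0.10), B4galt6 (0.12) and Sult2a6 (0.13), all with their largest difference at 72 h, although Sult2a6 did not pass the test for an effect at any time (adjusted p = 0.963 in limma). Likeness was measured over 5 times that share the same 30 arrays, and is a description.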

How the data were processed

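Total RNA from hippocampus was measured on arrays, and each probe set has 1 linear signal intensity on each array in the deposited table, where the trimmed means of the arrays already matched. The step from image to intensity was not stated by the labels or file headers. Groups follow the labels. The member genes and all gene lists were chosen with earlier results of these data known.

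Each array was scaled to the common mean trimmed by 2% at each end, floored at a signal of 10.95 (log2 3.45, 20th percentile) and turned into log2. Tested probe sets passed the 40th percentile (35.2) on at least 3 of 30 arrays. A fit of 10 group means was made in limma 3.58.1 (R 4.3.3) with an intensity trend, 20 residual and 7.26 prior degrees of freedom (median), and Benjamini-Hochberg adjustment at 0.05. The scripts were tested on simulated data. Precision is limited by the number of arrays, which carry no depth.

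Gene names came from the platform annotation: 7006 of 8740 probe sets had 1 gene, 308 several and 1426 none. Every member probe set is named, pathway genes outside the members were to be named where they passed, and the 3 genes nearest in pattern are named for each member gene past the F test at any time. A pathway or marker gene is represented by its probe set with the highest mean log2 signal. Alternatives were quantile normalization, log2(signal + 16), no filter, no trend, array weights, a replicate block, fits of fewer arrays and leaving out each array.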

Additional observations from a re-analysis of the deposited data

Results flagged for a closer look

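The kainate effect on C1qb differed between the 5 times by an F test in limma, with adjusted p = 0.00181 for X71127_at and 0.00566 for X71127_g_at, and was largest at 24 h. Signals outside the comparisons of tested members stood above all 15 PBS arrays at 24 h. The C3 probe sets, too low to test, reached 42.4 for M29866_s_at and 37.6 for X52477_at on kainate arrays, against a highest PBS signal of 3.81 and 16.5. The probe set of C4b and C4a together, rc_AA800942_at, reached 58.0, against a highest PBS signal of 28.1. It also stood above all PBS arrays on replicate 2 of the kainate 1 h group, at 43.9. All 3 maxima come from replicate 1 or 2 of the kainate 24 h group, and replicate 3 was within the PBS range for X52477_at and rc_AA800942_at. Replicate 3 had the highest summed microglia and macrophage signal of the group, 1843, against 1581 and 1545 on replicates 1 and 2. What sets replicate 3 apart was not tested.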

How the results depend on the processing

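Of 56 values recomputed for the 4 called C1qb differences, 54 stayed past the threshold, 2 no longer passed and 0 turned sign. Without the filter on low values 4 members passed at 24 h (both C1qb and both C3 probe sets) and 1 at 72 h (Masp1). At 72 h 4 passed with array weights (both C1qb, Masp1 and Serping1) and 1 in the fit of the 6 and 72 h arrays alone (Masp1). Of the 2 members that differed among PBS groups, 1 was left under quantile normalization, without the filter and without the trend, and 0 among the times 1, 24 and 240 h only or 6 and 72 h only. For the effect differing between times, 2 passed among 1, 24 and 240 h only (C1qb) and 1 for 6 and 72 h only (Masp1); these within-split tests were chosen after seeing the data. The cause of these changes was not tested. Leaving out 1 array at a time gave 0 members at 1 h, 1 to 2 at 6 h, 2 to 3 at 24 h, 0 at 72 and 240 h, 2 to 4 with an effect at any time, 2 to 3 with an effect differing between times, 0 to 1 neighbouring contrasts and 0 to 3 differing among PBS groups.

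With a replicate block the member counts were 0, 2, 2, 0 and 0 at the 5 times, and it changed no member call. Same-numbered arrays did not deviate together: 3 of 15 pairs correlated over 0.1, from -0.07 to 0.17.

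Over all tested probe sets the main counts were 69, 248, 714, 3 and 3. With array weights they were 633 at 6 h and 153 at 72 h. In fits of the 6 arrays of a time they were 31 at 1 h, 256 at 24 h and 0 at 72 and 240 h, and in fits of the 6 and 72 h arrays or the others alone 43, 481, 343, 5 and 0. At 72 h they were 10 without the filter, 0 without the trend and 0 with the block, and at 240 h 13 without the filter. Leaving out 1 array gave 51 to 96, 163 to 279, 336 to 715, 0 to 1 and 0 to 19. The lowest at 24 h came without replicate 3 of the kainate group, and 431 without replicate 3 of the PBS group.

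Signals near the floor limit Serping1, Cd55, C3 and C4.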
